A study of Mus musculus with 4 samples.

Results

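Arg1 Inhba macrophages are cells from MC38 tumours whose RNA held the macrophage receptor gene Csf1r together with high Arg1 and Inhba. They were selected on raw UMI counts, where a UMI is a tag for a single captured RNA molecule. A cell needed at least 1 UMI of Csf1r, 3 of Inhba and 10 of Arg1. Cells were left out when they held 2 or more UMIs of C3, Fcrls or Mmp13, 3 or more of Cxcl9, any Lyve1 or Cd209f, any gene of the CD3 complex, or Mki67 and Top2a together. The selection found 1625 cells of 44184 kept in 4 libraries: 258 in WT 1, 214 in WT 2, 699 in KO 1 and 454 in KO 2. The comparison set was 10258 other Csf1r cells, which met the Csf1r minimum and every exclusion but missed the Inhba minimum, the Arg1 minimum or both.

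The study profiled CD45-positive cells of MC38 tumours, and each of its genotypes, WT and a knockout (KO), had 2 libraries. MC38 is a transplantable line of mouse colon adenocarcinoma. Tumours were digested with enzymes and the cells were enriched on CD45 beads before 10x Genomics 3' capture. Strain, age, any treatment and the number of animals per library are not given in the labels, and no deletion or agent is named as shared by both genotypes. The p-values therefore rest on the spread between libraries of a genotype, and that spread may be technical only.

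Arg1 encodes arginase 1, which splits arginine into ornithine and urea and so competes with nitric oxide synthases for the same amino acid. Inhba encodes the inhibin beta A subunit, and a pair of these subunits forms activin A, a ligand of the TGF-beta superfamily. Tumour macrophages that make arginase 1 are known for low antigen presentation and for a gene program linked to hypoxia.

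Promoter windows are shown for 3 genes with low adjusted p-values in the comparison of KO with WT on their lists, to show the letters counted below. Each window runs from 250 bases before to 50 after a RefSeq start on GRCm38.p6, and a match is a description of letters, not a binding site. Capitals mark ACGTG, the core letters of the hypoxia response element, in Ankrd37 (chr8:45999801-46000100, minus strand), a target of the hypoxia response whose RNA fell in KO.
Ankrd37: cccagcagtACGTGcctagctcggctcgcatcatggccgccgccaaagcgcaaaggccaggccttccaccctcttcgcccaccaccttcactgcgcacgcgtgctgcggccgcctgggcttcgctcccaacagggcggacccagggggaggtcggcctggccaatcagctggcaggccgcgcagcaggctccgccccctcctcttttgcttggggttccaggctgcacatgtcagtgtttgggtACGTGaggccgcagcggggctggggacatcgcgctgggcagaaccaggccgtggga
Capitals mark TTCNNNGAA, the letters of the gamma-activated site, in Irf1 (chr11:53769764-53770063, plus strand), a transcription factor gene of the interferon gamma response whose RNA rose in KO; 1 of its 2 windows holds the letters.
Irf1: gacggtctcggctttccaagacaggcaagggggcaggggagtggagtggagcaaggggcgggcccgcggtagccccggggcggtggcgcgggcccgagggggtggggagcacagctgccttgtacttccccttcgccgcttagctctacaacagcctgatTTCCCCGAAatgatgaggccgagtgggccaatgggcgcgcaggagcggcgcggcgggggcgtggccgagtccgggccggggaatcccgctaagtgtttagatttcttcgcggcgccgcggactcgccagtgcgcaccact
Capitals mark GAAA, any 2 bases and GAAA, the letters of the interferon-stimulated response element, in Fcgr4 (chr1:171018676-171018975, plus strand), an Fc receptor gene whose RNA rose in KO.
Fcgr4: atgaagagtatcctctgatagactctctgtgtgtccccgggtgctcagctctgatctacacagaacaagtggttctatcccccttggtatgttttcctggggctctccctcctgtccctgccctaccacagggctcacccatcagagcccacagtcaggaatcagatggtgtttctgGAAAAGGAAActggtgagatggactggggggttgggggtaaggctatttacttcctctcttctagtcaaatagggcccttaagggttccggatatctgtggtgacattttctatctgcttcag
Both strands were searched, and the last 2 motifs may overlap. ACGTG was present in 8 of the 10 hypoxia list genes that were lower in KO and had a window (80%), beside 21.8% of 27025 genes with a window. TTCNNNGAA was present in 6 of 15 interferon gamma list genes that were higher in KO (40%), beside 9.55% of all genes. The GAAA pair was present in 11 of those 15 (73.3%), beside 3.99%. The sterol element letters TCACNCCAC were in none of 6 cholesterol list genes that were lower in KO, beside 1.44% of all genes. The lists were drawn up by response, and no share was taken over their genes that were not called. These shares therefore cannot tell the called genes from the rest of their lists.

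The summed UMIs of the selected cells were 3399464, 2846126, 6791465 and 5774544 in WT 1, WT 2, KO 1 and KO 2. Their median depth was 12280, 12810.5, 8895 and 11214.5 UMIs per cell, and that of other Csf1r cells 9793, 11394, 5569 and 7308, so KO cells were shallower in both sets. Between 22 and 51 cell barcodes were shared by each pair of libraries.

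The markers that name the population were checked first. Levels are given in CPM, the UMIs of a gene per 1000000 UMIs of the library's summed cells. Spp1, which encodes osteopontin and was not used in the selection, stood at 10889, 10517, 8726 and 8373 CPM in the selected cells of WT 1, WT 2, KO 1 and KO 2, and at 5028, 4144, 3910 and 4121 CPM in other Csf1r cells. Cxcl1, a CXCR2 ligand that draws neutrophils, stood at 523, 429, 882 and 908 CPM in the selected cells and at 129, 96.6, 315 and 231 CPM in other Csf1r cells. Both were higher in the selected cells of all 4 libraries. Arg1 was at 9000, 8350, 7164 and 7898 CPM and Inhba at 1087, 1247, 1757 and 1763 CPM in the selected cells, beside 5470, 3826, 4368 and 4593 CPM and 20.7, 23.2, 199 and 179 CPM in other Csf1r cells. For Arg1 and Inhba these levels restate the selection.

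All 14 macrophage markers had UMIs in every library, and 1 of them, Csf1r, was required by the selection. Their summed levels were 21340, 27010, 33853 and 28570 CPM. Those of other Csf1r cells were higher in each library, at 23530, 29106.5, 43652 and 30915.5 CPM. The T cell list, whose CD3 genes are at 0 by the selection, had UMIs in 5, 6, 10 and 10 of 13 markers and summed to 6.47, 5.27, 26.7 and 26.0 CPM. The NK cell list summed to 4.12, 8.78, 51.7 and 56.5 CPM, with UMIs in 3, 6, 10 and 10 of 10 markers. Summed lymphocyte transcripts were therefore low in these cells and higher in KO than in WT. They were spread over many KO cells. Cells free of any T, NK or B cell marker UMI, Cd4 aside, were 224 of 258, 178 of 214, 391 of 699 and 248 of 454. Fibroblast markers summed to 63.0, 108, 35.9 and 16.5 CPM and were lower in KO, neutrophil markers to 182, 226, 151 and 110 CPM, and monocyte markers to 1316, 871, 1117 and 1088 CPM. The conventional dendritic cell list summed to 245 to 304 CPM, of which Sirpa, a gene that macrophages also express, made up 239 to 296 CPM. B cell, mast cell, endothelial and epithelial lists each stayed under 27 CPM.

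**Figure D1:**
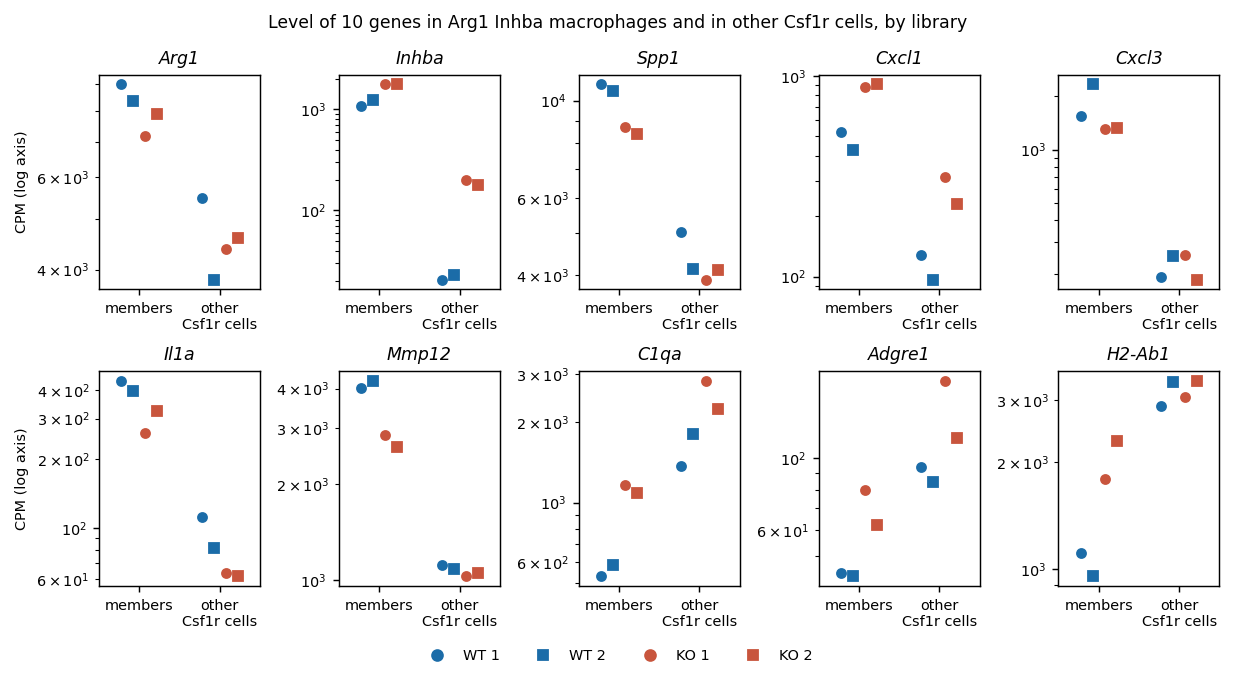
Level in CPM (log axis) of 10 genes in the selected cells (members) and in other Csf1r cells; blue is WT, red is KO, circles are library 1 and squares library 2, and there are no error bars because each point is 1 library. Spp1, Cxcl1, Cxcl3, Il1a and Mmp12 are higher in the selected cells of every library, and C1qa and Adgre1 are lower.

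Cells just inside and just outside the Inhba minimum were alike in part. Arg1-high cells with exactly 3 Inhba UMIs had 454, 668, 493 and 439 CPM of Cxcl1, and those with 2 had 259, 80.2, 386 and 446 CPM. The groups held 43, 24, 78 and 57 cells inside and 61, 54, 106 and 75 outside. Cxcl1 was higher just inside in 3 libraries and not in KO 2. Spp1 was at 8349, 5862, 7754 and 9314 CPM inside and 8433, 7838, 6153 and 6475 CPM outside, lower inside in both WT libraries and higher in both KO libraries. Few selected cells lay near the Arg1 minimum: 6, 2, 31 and 15 cells had 10 to 12 UMIs, against a median per cell of 101, 92, 59 and 81.

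The selected cells were a larger share of the KO libraries. They made up 2.98% (95% exact binomial interval 2.63 to 3.36) of kept cells in WT 1, 2.43% (2.12 to 2.77) in WT 2, 4.06% (3.77 to 4.37) in KO 1 and 4.78% (4.36 to 5.23) in KO 2. The intervals cover counting error only. Both KO shares were above both WT shares, with a mean of 2.70 ± 0.389% for WT against 4.42 ± 0.507% for KO (SD over 2 libraries), a ratio of 1.64. The exact permutation test gave a two-sided p of 0.33, the smallest that 2 libraries against 2 allow. The shares do not separate more such cells from fewer cells of other kinds.

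Among Csf1r cells that met every exclusion, the share was 8.41%, 7.44%, 18.4% and 21.3%, a ratio of 2.50. Among those that were also Arg1-high it was 12.1%, 11.2%, 34.9% and 36.5%, a ratio of 3.07. Arg1-high cells themselves were 68.1 ± 2.42% of the eligible cells in WT and 55.5 ± 4.06% in KO. The larger KO share of selected cells thus did not go with a larger share of Arg1-high cells. KO libraries were shallower, so each cell was also thinned to 5000 UMIs. Cells below that depth were dropped, which left 6213, 7053, 9680 and 6091 of the 8664, 8815, 17207 and 9498 kept cells. Among those left the shares were 2.21 ± 0.165% and 6.02 ± 0.126%, a ratio of 2.72. More of the KO cells were dropped, so this ratio does not stand for all kept cells. The exclusions also bore on the genotypes unequally: the selected cells were 55.1%, 44.9%, 29.5% and 30.8% of all cells past the 3 minimums. Of these cells 10.0%, 23.9%, 48.5% and 44.0% met the exclusion on C3, and that on Cxcl9 was met by 3.21%, 4.19%, 32.2% and 29.4%. With the exclusions on C3, Fcrls, Mmp13 and Cxcl9 dropped, the shares were 4.59 ± 0.170% in WT and 12 ± 0.869% in KO, a ratio of 2.62. Leaving out selected cells with any T, NK or B cell marker UMI gave 2.59%, 2.02%, 2.27% and 2.61% of all kept cells. The genotypes then overlapped. Among eligible cells without such UMIs the shares were 9.41%, 8.72%, 19.7% and 22.5%.

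**Figure D2:**
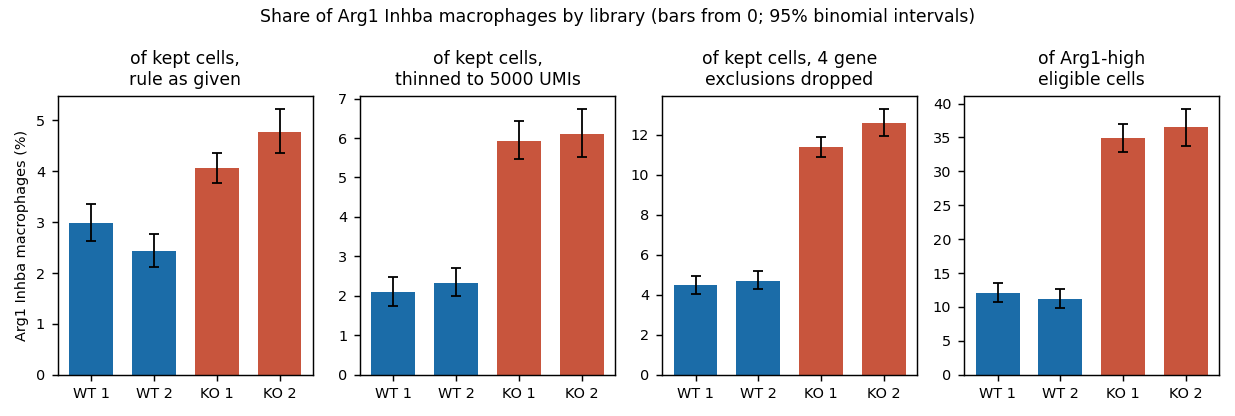
Share of Arg1 Inhba macrophages (%, bars from 0) in each library, of kept cells under the rule and without 4 gene exclusions, and of Arg1-high eligible cells. The panel thinned to 5000 UMIs gives the share of kept cells with at least that depth. Error bars are 95% exact binomial intervals. Both KO bars stand above both WT bars in each panel.

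The genes that set the selected cells apart from other Csf1r cells were described without a test, because the selection used RNA of the same cells. Of 2760 genes with a mean of at least 50 CPM in either set, 24 (0.87%) were at least 1 log2 unit higher in the selected cells of all 4 libraries and 18 (0.652%) at least 1 unit lower. Differences here are log2 ratios of CPM with a pseudocount of 1 CPM, and their median over all 2760 genes was -0.10. The higher genes included the chemokine genes Cxcl3, Cxcl1 and Cxcl2, the protease inhibitor gene Slpi and the cytokine gene Il1a. The lower genes included Plac8, Ccl17, Ccl8, Ms4a7 and H2-DMb2.

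Of 7 chemokine genes measured on the neutrophil-attracting list, 5 were higher: Cxcl3, Cxcl1, Cxcl2, Ccl3 and Ccl4. The median difference of the 7 was 1.53. Cxcl3, a CXCR2 ligand, was at 1540, 2330, 1313 and 1324 CPM in the selected cells and at 191, 251, 255 and 185 CPM in other Csf1r cells. The selected cells held the higher level in every library, and WT 2 had the most. Cxcl2, another CXCR2 ligand, was at 6832, 7404, 8364 and 9042 CPM beside 2517, 2309, 3182 and 2969 CPM. Ccl3 and Ccl4, though on this list, attract mainly monocytes and T cells and not neutrophils. Ccl3 stood at 534, 564, 645 and 603 CPM beside 153, 106, 247 and 206 CPM.

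The widest differences included Slpi, Csta2 and Cstdc4. Slpi, a secreted inhibitor of neutrophil elastase, was at 652, 674, 348 and 181 CPM in the selected cells and at 68.9, 65.8, 74.7 and 45.4 CPM in the others. Csta2, a cystatin A family gene, was at 228, 239, 95.1 and 75.9 CPM beside 18.5, 29.1, 13.7 and 16.3 CPM. Cstdc4, of the same family, was at 306, 140, 55.8 and 20.8 CPM beside 6.02, 10.4, 7.34 and 2.89 CPM. Both KO levels lay below both WT levels for these 3 genes in the selected cells. In the test between genotypes given below, only Csta2 of the 3 passed. Such a separation alone is weak, since an exact permutation test of 2 libraries against 2 gives no p below 0.33. Reads of near-identical cystatin genes can be split or lost in counting.

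Inflammatory mediators followed, with 4 of 18 listed genes higher by at least 1 unit in all libraries (Il1a, Areg, Ptgs2 and Tnf). Il1a, the cytokine interleukin 1 alpha, was at 439, 394, 258 and 324 CPM beside 112, 81.6, 63.7 and 61.6 CPM. Ptgs2, which makes prostaglandin precursors, was at 684, 661, 965 and 894 CPM beside 260, 145, 399 and 268 CPM. Areg, an EGF receptor ligand, was at 183, 106, 157 and 156 CPM beside 54.1, 21.6, 37.7 and 30.1 CPM. The selected cells were the higher set in every library for each of them. Tnfrsf9, which encodes the receptor 4-1BB, and Phlda1 were higher by 1.37 to 1.98 and 1.33 to 1.53 log2 units.

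Nos2, the inducible nitric oxide synthase that shares its substrate with arginase 1, was at 258, 229, 226 and 222 CPM in the selected cells and at 40.0, 29.4, 86.3 and 60.7 CPM in the others. Its level in the selected cells was nearly equal in all 4 libraries. With cells thinned to 5000 UMIs, Nos2 was detected in 33.8%, 30.8%, 37.5% and 37.0% of selected cells and in at most 2.55% of T cells without Csf1r, which should lack it. Only cells of at least 5000 UMIs entered these shares, 237, 201, 594 and 413 selected cells and 44, 83, 235 and 201 T cells. The median depths before thinning were 13288, 13109, 9781 and 11839 UMIs in these selected cells and 6696, 8105, 6946 and 7334 in the T cells. Cxcl1 was detected at 5000 UMIs in 32.5%, 27.9%, 53.0% and 47.7% of these selected cells and in 4.55%, 4.82%, 13.6% and 8.96% of the T cells. Without thinning it was detected in 40.1%, 31.8%, 61.1% and 57.1% of the same selected cells. Nos2 and Ptgs2 were the only 2 of 10 genes of arginine, polyamine and nitric oxide metabolism past 1 unit in all libraries.

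Of 21 matrix, proteolysis and coagulation genes, 3 were higher. Mmp12, the macrophage elastase, was at 4020, 4233, 2860 and 2613 CPM beside 1118, 1085, 1030 and 1057 CPM. Thbd, which encodes thrombomodulin, was at 179, 154, 109 and 64.9 CPM beside 50.4, 31.6, 30.7 and 20.2 CPM. Mmp8, a collagenase also made by neutrophils, was at 94.4, 94.2, 53.4 and 50.4 CPM beside 43.5, 27.1, 19.3 and 17.6 CPM. For each, both KO levels in the selected cells lay below both WT levels. In the test between genotypes given below Mmp8 and Mmp12 passed, and Thbd did not. Slc7a11, the cystine importer subunit, Egr2 and Fpr2 were the other list genes past 1 unit in all libraries besides Spp1. Of the 29 glycolysis and hypoxia genes measured none passed 1 unit in all libraries, and their mean differences ran from 0.02 to 1.37 with a median of 0.40.

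Among the genes that were lower, Plac8, a gene of monocytes, was at 29.1, 11.6, 68.3 and 90.7 CPM in the selected cells and at 172, 107, 386 and 394 CPM in the others. Ccl17, a CCR4 ligand, was at 41.8, 45.3, 6.04 and 34.6 CPM beside 169, 190, 56.3 and 164 CPM. Pltp, the phospholipid transfer protein gene, was at 18.8, 13, 19.3 and 14.4 CPM beside 69.2, 56.4, 85.9 and 67.2 CPM. The selected cells held the lower level in every library for these genes. Against Arg1-high cells alone, the mean log2 difference of Plac8 went from -2.55 to -0.027, that of Ccl17 from -2.32 to 0.37, that of H2-DMb2 from -1.94 to -0.64 and that of Pltp from -2.03 to -1.39. That of Plac8 was -0.65 with cells thinned to 10000 UMIs. Of 11 class II genes, H2-DMb2 and Ciita were lower by at least 1 unit in all libraries and the list median was -0.89, while none of 14 class I genes passed and their median was -0.35. Apoe and Ms4a7, genes of resident-type macrophages, were at 879 to 2808 and 47.9 to 141 CPM beside 2824 to 10307 and 164 to 516 CPM.

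Within Arg1-high eligible cells, the same genes were followed over bins of Inhba UMIs, from 0 to 11 or more. These bins are a description across cells of the same libraries, with 1639, 1494, 931 and 549 cells at 0 in WT 1, WT 2, KO 1 and KO 2. From the lowest to the highest bin Cxcl3 went from 178 to 2513 CPM in WT 1, 211 to 2887 in WT 2, 231 to 1705 in KO 1 and 164 to 1736 in KO 2. Nos2 went from 34.6 to 337, 31.2 to 308, 85.7 to 263 and 58.6 to 247 CPM. C1qa, a complement gene of mature macrophages, went the other way, from 1514 to 318, 2032 to 511, 3623 to 806 and 2996 to 880 CPM. These genes thus differed along Inhba among cells past the Arg1 minimum, and in the same direction in the 4 libraries. Arg1 itself also went up, from 6488 to 9390, 4972 to 9214, 6319 to 7321 and 6477 to 7953 CPM. The bins were therefore not level in Arg1, and the part of each gene was not tested.

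The class II gene H2-Ab1 went from 1985 to 911 CPM in WT 1 and from 2297 to 833 in WT 2, but from 1527 to 1669 in KO 1 and 2301 to 2248 in KO 2. The WT and KO libraries thus differed in this gene along Inhba. Fn1, which encodes fibronectin, changed less, from 5565 to 5258, 3553 to 3119, 2403 to 2966 and 2593 to 3003 CPM. Median depth per bin ran from 11687 to 13088, 11023 to 13644, 8537 to 9652 and 10928 to 13259 UMIs per cell in the 4 libraries.

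**Figure D3:**
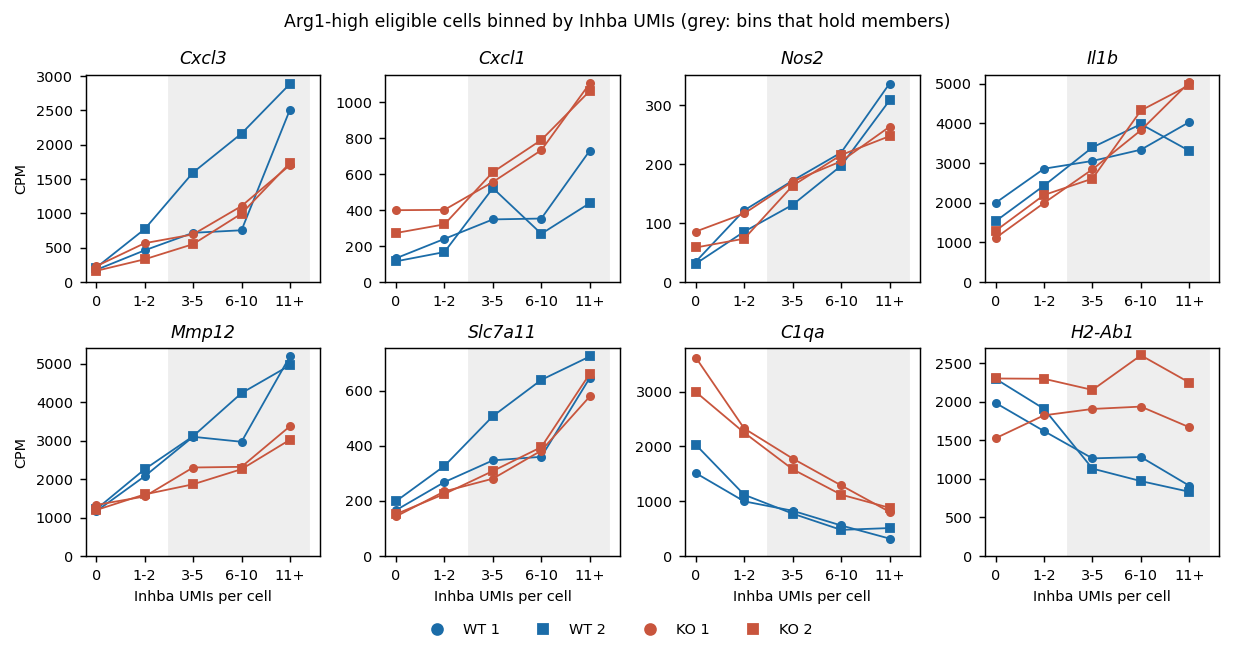
Level in CPM of 8 genes in Arg1-high eligible cells grouped by Inhba UMIs per cell, 1 line per library (blue WT, red KO, circles library 1, squares library 2, no error bars); the grey area marks bins of selected cells. Cxcl3, Nos2 and Mmp12 are highest at 11 or more Inhba UMIs in each library, and C1qa is lowest there in all but WT 2, where the bin of 6 to 10 is lower, while H2-Ab1 is lower there in WT and close to its starting level in KO.

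KO was then compared with WT within the selected cells, which asks how these macrophages differ between tumours of the 2 genotypes. Values were UMI sums per library, tested in edgeR by quasi-likelihood, with p-values adjusted over all genes by Benjamini and Hochberg's method. Of 9650 genes tested outside the selection rule, 252 were higher in KO (2.61%) and 165 lower (1.71%), 4.32% in either direction at an adjusted p under 0.05, with a median log2 difference of 0.00. On the lists, 21 of 28 interferon gamma genes, 13 of 17 class I genes and 7 of 11 class II genes rose, and 11 of 36 hypoxia genes and 10 of 25 cholesterol genes fell. The selection bears on this comparison, since KO cells were shallower and the exclusion on Cxcl9, an interferon gamma target, removed more KO cells. Cxcl9 itself was at 2.35, 7.38, 31.8 and 21.3 CPM, and C3 at 12.1, 24.9, 34.5 and 29.4 CPM, values which the selection capped.

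Of 28 interferon gamma response genes tested, 21 rose in KO and none fell, with a median log2 difference of 2.06. Gbp4, a guanylate-binding GTPase (chr5:105115767-105139586), was at 2.06, 5.62, 52.6 and 42.6 CPM in WT 1, WT 2, KO 1 and KO 2. The KO libraries lay far above WT, by 3.66 ± 0.30 log2 units (SE, adjusted p = 0.000117). Reads of the near-identical guanylate-binding genes may be split between them. Irf1, a transcription factor of the response, was at 17.6, 13.4, 100.9 and 82.1 CPM, a rise of 2.53 ± 0.17 (adjusted p = 1.31e-05). Fcgr4, an activating Fc receptor, was at 32.1, 36.9, 177 and 149 CPM, a rise of 2.22 ± 0.14 (adjusted p = 1.31e-05). Neither gene's groups overlapped, and both windows printed above belong to this set.

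Ly6a, which encodes the surface protein Sca-1 and is itself one of a family of similar genes, was at 53.2, 86.4, 754 and 621 CPM and rose by 3.28 ± 0.25 (adjusted p = 0.00147). Igtp, an immunity-related GTPase, was at 7.06, 6.68, 41.8 and 37.4 CPM and rose by 2.50 ± 0.20 (adjusted p = 2.85e-05). Il18bp, the secreted antagonist of interleukin 18, was at 3.82, 4.22, 36.2 and 22.2 CPM and rose by 2.85 ± 0.32 (adjusted p = 0.000789). For each of these the KO libraries lay above both WT libraries. Gbp5, Slamf8, Socs1, Upp1 and Cd274 were among the other genes that rose. Gbp2, at 14.4, 36.2, 157 and 169 CPM, and Cxcl10, a CXCR3 ligand at 26.2, 72.0, 203 and 191 CPM, did not pass (adjusted p = 0.114 and 0.318). The receptor gene Ifngr1 was at 174, 177, 149 and 149 CPM and did not pass either.

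The T and NK marker sums given above were 6.47 and 5.27 against 26.7 and 26.0 CPM, and 4.12 and 8.78 against 51.7 and 56.5 CPM, higher in KO in the same cells. Without cells holding any UMI of the T, NK or B cell lists, 17 of the 28 interferon gamma genes still passed, and 15 did without KO 1. The type I interferon list had 3 of 20 genes higher (Ifitm3, Bst2 and Oas2) and none lower, with a median of 0.54, and 1 higher without KO 1 or without KO 2 and 14 without WT 2. Ifitm3, which blocks virus entry, was at 269, 404, 1409 and 1209 CPM, a rise of 1.94 ± 0.21 (adjusted p = 0.00483). Bst2, known as tetherin, did not pass without KO 1 or without KO 2.

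The 12 largest rises among genes with a mean of at least 10 CPM included, besides list genes given above, Ifitm1 and Ly6i. Ifitm1, an interferon-induced membrane gene, was at 79.7, 56.6, 570 and 378 CPM and rose by 2.77 ± 0.25 (adjusted p = 0.00322). It lost its call without WT 1 or WT 2. Ly6i was at 3.82, 7.73, 59.6 and 51.1 CPM and rose by 3.27 ± 0.24 (adjusted p = 2.85e-05). Ifi205, Batf2 and H2-T10 were also among the 12 largest rises. H2-T10, a non-classical class I gene with close paralogs, was at 2.06, 1.76, 27.1 and 13.7 CPM, and it did not pass without WT 1 or WT 2. Ppbp, a platelet chemokine gene on the neutrophil-attracting list at 1.47, 5.27, 32.1 and 18.4 CPM, passed at an adjusted p of 0.0438 but not without KO 1.

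Of 17 class I presentation genes, 13 rose and none fell, with a median of 0.97. H2-K1, a classical class I heavy chain, was at 701, 822, 1667 and 1502 CPM, a rise of 1.04 ± 0.12 (adjusted p = 0.000349). Tap1, a subunit of the peptide transporter, was at 35.9, 43.6, 130 and 122 CPM, a rise of 1.65 ± 0.13 (adjusted p = 2.85e-05). Psmb9, an immunoproteasome subunit, was at 68.2, 73.4, 174 and 173 CPM, a rise of 1.28 ± 0.11 (adjusted p = 5.97e-05). The KO libraries lay above the WT libraries for all 3. B2m, H2-D1, Tap2, Tapbp and Nlrc5 also rose, and Erap1, Pdia3, Calr and Canx did not pass. Without the cells that held lymphocyte markers, 13 of the 17 passed.

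Of 11 class II presentation genes tested, 7 rose and none fell, with a median of 0.58. Cd74, the invariant chain, was at 3582, 3379, 5646 and 7338 CPM, a rise of 0.88 ± 0.13 (adjusted p = 0.00218). H2-Ab1, a class II beta chain, was at 1109, 956, 1791 and 2297 CPM, a rise of 0.97 ± 0.13 (adjusted p = 0.00172). H2-DMa, which helps load peptides, was at 222, 199, 360 and 380 CPM, a rise of 0.80 ± 0.11 (adjusted p = 0.0014). In each, both KO libraries were above both WT libraries, with KO 2 the highest. With cells thinned to 5000 UMIs, H2-Ab1 was also detected in 36.4%, 41.0%, 54.0% and 54.7% of T cells without Csf1r. In the selected cells it was detected in 70.5%, 74.1%, 83.7% and 86.7%. Cd74 was detected in 61.4%, 66.3%, 74.9% and 78.6% of the T cells and 77.6%, 85.1%, 93.6% and 96.6% of the selected cells. For each gene both KO shares lay above both WT shares in both cell sets. The T cell shares rest on 44 and 83 cells in WT and on 235 and 201 in KO. How far free RNA bears on the class II rises was not tested. Ciita, the class II transactivator, was at 15, 14.1, 14.4 and 24.2 CPM and did not pass. The count of 7 fell to 5 without KO 1, 3 without KO 2, 3 without cells holding stromal markers and 2 with cells thinned to 10000 UMIs.

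**Figure D4:**
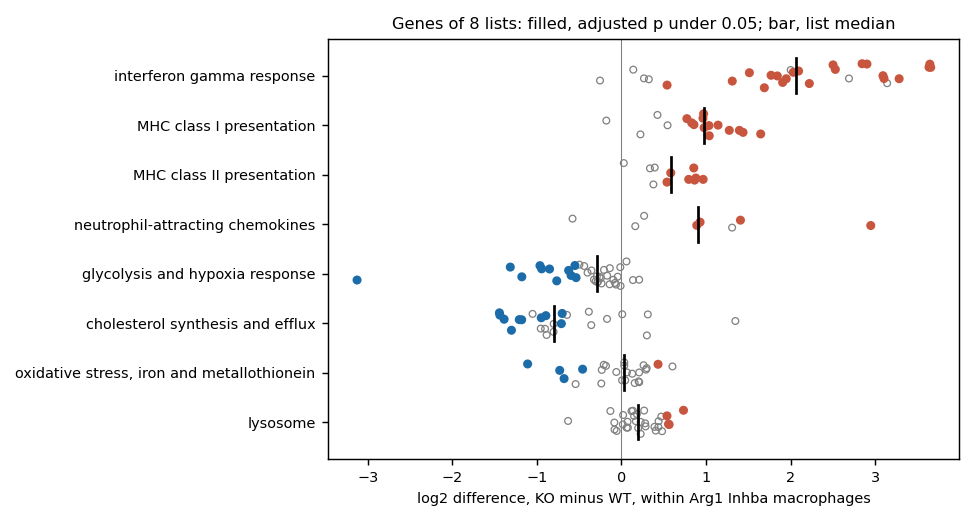
Log2 difference between KO and WT within the selected cells for the tested genes of 8 lists; filled points passed an adjusted p of 0.05 (red higher, blue lower in KO), open points did not, and black bars are list medians. The interferon gamma list lies to the right with a median of 2.06 and the cholesterol list to the left with a median of -0.80.

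Of 13 macrophage markers 6 rose (Adgre1, C1qa, C1qb, C1qc, Ms4a7 and Fcgr1) and none fell, with a median of 0.68. C1qa, a complement subunit gene, was at 532, 585, 1162 and 1086 CPM, a rise of 0.99 ± 0.11 (adjusted p = 0.000287). In T cells without Csf1r thinned to 5000 UMIs, C1qa was still detected in 38.6%, 32.5%, 57.9% and 39.3%, beside 44.3%, 54.2%, 72.4% and 66.3% of the selected cells. The share in T cells, which should lack the gene, was lower than in the selected cells of the same library but far from 0. Fcgr1, the high-affinity Fc receptor for IgG, was at 78.5, 93.8, 269 and 252 CPM, a rise of 1.58 ± 0.12 (adjusted p = 2.85e-05). Adgre1, which encodes F4/80, was at 44.1, 43.2, 80.0 and 62.3 CPM and rose by 0.68 (adjusted p = 0.0179), a call lost under 5 alternatives, among them leaving out KO 1 or KO 2.

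Chemokine genes were taken next. Of 8 genes on the neutrophil-attracting list 4 rose and none fell, with a median of 0.91. Cxcl1 (523, 429, 882 and 908 CPM) rose by 0.89 ± 0.11 (adjusted p = 0.000825) and passed when any one library was left out. Ccl4 was at 385, 348, 1049 and 924 CPM and rose by 1.41 ± 0.11 (adjusted p = 2.85e-05). Cxcl16, the CXCR6 ligand, was at 186, 238, 412 and 407 CPM and rose by 0.93 ± 0.13 (adjusted p = 0.00173). Ccl4 and Cxcl16, though listed here, attract mainly T cells, monocytes and NK cells and not neutrophils, and Ppbp was the remaining riser. Cxcl2 and Cxcl3, whose values are given above, did not pass (log2 difference 0.27 and -0.58).

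Of 12 other CC chemokine genes 1 rose and none fell, with a median of 1.24. Ccl8, a ligand of several monocyte receptors, was at 39.4, 18.3, 171 and 163 CPM, a rise of 2.49 ± 0.30 (adjusted p = 0.017) that did not pass without KO 1 or KO 2. Reads of the similar genes Ccl2, Ccl7, Ccl8 and Ccl12 may be split in counting. Among 31 inflammatory genes 3 rose (Socs3, Ptgs2 and Il18) and 2 fell (Il1a and Csf3), with 1 and 1 without KO 1 and none without KO 2. Socs3, a brake on cytokine signals, was at 185, 209, 326 and 356 CPM and rose by 0.77 ± 0.12 (adjusted p = 0.00246), a call lost without KO 2. Il1a fell by 0.54 on the log2 scale (SE 0.13, adjusted p = 0.035), a call lost without KO 1 or KO 2.

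Genes of the hypoxia response were lower in KO, 11 of 36 with none higher, and the list median was -0.29. Ankrd37, whose window is printed above, was at 131, 152, 54.6 and 61.1 CPM, a difference of -1.31 ± 0.13 (adjusted p = 0.000117). Slc2a1, the glucose transporter GLUT1 (chr4:119108711-119137983), was at 419, 410, 206 and 232 CPM, a difference of -0.94 ± 0.11 (adjusted p = 0.000505). Egln3, a prolyl hydroxylase that acts on HIF proteins, was at 241, 169, 90.7 and 93.2 CPM, a difference of -1.18 ± 0.15 (adjusted p = 0.0013). The WT libraries lay above the KO libraries for all 3, and their calls held in every alternative run. Ero1a, Bnip3, Bnip3l, Ddit4, Hk2, Mxi1, Pdk1 and Adm also fell. Hif1a itself was at 284, 272, 282 and 277 CPM, and Vegfa at 506, 625, 519 and 441 CPM. Neither passed, nor did the glycolytic genes Ldha and Pgk1. The count of 11 was 4 without KO 1, 6 without KO 2 and 21 with the 4 gene exclusions dropped.

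Cholesterol genes were also lower, 10 of 25 with none higher and a median of -0.80. Sc5d, a late enzyme of sterol synthesis, was at 26.2, 19.3, 8.25 and 8.83 CPM, a difference of -1.44 ± 0.22 (adjusted p = 0.00197). Stard4, a sterol carrier, was at 35.3, 25.3, 11.2 and 12.5 CPM, a difference of -1.39 ± 0.20 (adjusted p = 0.00169). The genotypes did not overlap for either. The count moved with the choices made: 3 without KO 1, 6 without KO 2, 18 without WT 2, 4 without lymphocyte-marker cells and 1 with cells thinned to 10000 UMIs.

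Of 25 oxidative stress, iron and metallothionein genes 4 fell and 1 rose (Nfe2l2, at an adjusted p of 0.0445). Hmox1, the heme oxygenase, was at 475, 427, 215 and 209 CPM, a difference of -1.11 ± 0.11 (adjusted p = 0.000117). The metallothionein genes Mt1 (2111, 1890, 1376 and 1071 CPM) and Mt2 fell by 0.73 and 0.68 on the log2 scale, calls lost for Mt1 without KO 2 and for Mt2 without KO 1 or KO 2. Both WT libraries were the higher ones for these genes. The count of 4 was 2 without KO 1 and 1 without KO 2. In the matrix list 4 of 32 genes fell (Mmp2, Thbs1, Mmp8 and Mmp12) and none rose. Mmp8 differed by -0.88 ± 0.12 (adjusted p = 0.00123). Thbs1, which encodes thrombospondin 1, was at 2418, 2929, 1622 and 1205 CPM, with a difference of -0.94 (adjusted p = 0.0111) that did not pass without KO 2. Only 1 of the 4 passed without that library.

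In arginine and polyamine metabolism only Sat1, which acetylates polyamines, fell (679, 628, 396 and 445 CPM, a difference of -0.66 ± 0.11, adjusted p = 0.00419), and Ptgs2 rose (0.45, adjusted p = 0.0274) of 19 genes. Sat1 did not pass without KO 1, nor Ptgs2 without KO 1 or KO 2. Nos2 did not pass (log2 difference -0.14). Of 16 activin and TGF-beta genes 1 rose and 1 fell. Acvr2a, an activin receptor, was at 4.41, 5.27, 13 and 11.4 CPM and rose by 1.32 ± 0.27 (adjusted p = 0.0142), but not without KO 1 or KO 2. Fst, whose product follistatin binds activin, was at 25.3, 34.4, 37.4 and 18.0 CPM with overlapping genotypes, beside 3.02 to 5.91 CPM in other Csf1r cells. Tgfb1 was at 222, 260, 229 and 275 CPM, also overlapping.

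Among checkpoint and ligand genes 5 of 18 rose and none fell, with 2 higher without KO 1 and 1 without KO 2. Entpd1, the ectonucleotidase CD39, was at 24.4, 34.4, 102 and 77.9 CPM, a rise of 1.60 ± 0.19 (adjusted p = 0.00135). Havcr2, which encodes TIM-3, was at 35.9, 37.6, 58.2 and 66.8 CPM and rose by 0.75, a call lost without KO 1 or KO 2. Cd274, which encodes PD-L1, was at 107, 140, 184 and 181 CPM, a rise of 0.54 (adjusted p = 0.0441) that was lost in 11 alternatives. Cd40 and Cd86 also rose, calls lost without KO 1 or KO 2. Of 17 alternative activation genes 5 rose (Fpr2, Stab1, Maf, Il4ra and Msr1), of 31 lysosome genes 4 rose, and none of either list fell. None of the 5 alternative activation genes passed without KO 1, and of the lysosome genes 1 did without KO 1 and none without KO 2. The lipid-associated list had 2 of 25 genes higher and none lower, with Spp1 not passing (adjusted p = 0.0633). No gene of that list passed without KO 1 or without KO 2. On the mitophagy list 2 of 25 genes fell (Bnip3 and Bnip3l) and none rose, with a median of -0.10, and neither passed without KO 1.

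The 12 largest falls among genes with a mean of at least 10 CPM included Htra3, Bhlhe41 and Net1. Htra3, a secreted serine protease gene, was at 30.9, 23.2, 5.74 and 7.62 CPM, a difference of -2.05 ± 0.23 (adjusted p = 0.000309). Bhlhe41, a transcription repressor gene, was at 26.8, 30.6, 7.66 and 7.10 CPM, a difference of -1.97 ± 0.20 (adjusted p = 0.000158). Net1, a guanine nucleotide exchange factor gene, was at 40.6, 25.3, 8.83 and 10.4 CPM, a difference of -1.81 ± 0.23 (adjusted p = 0.00116). The WT libraries were the higher ones for these genes. Csta2, given above, differed by -1.47 ± 0.13 (adjusted p = 4.4e-05). Cald1 and Bgn, known from stromal cells, also fell, and the fibroblast marker sum given above was lower in KO. Cald1 turned to a log2 difference of 0.25 without cells holding stromal markers, and Bgn lost its call under 3 alternatives. Cx3cr1, the fractalkine receptor, was at 54.4, 40.4, 19.1 and 9.87 CPM and passed at an adjusted p of 0.029, but not without WT 1.

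The last comparison asked whether the difference between KO and WT in the selected cells was the same as in other Csf1r cells of the same libraries. It was tested as an interaction by edgeR's quasi-likelihood test on the 8 sums, with library as a block. The interaction shares the selected cells' sums with the comparison above. The other Csf1r cells differed in make-up between genotypes. Arg1-high cells below the Inhba minimum were 1883 of 2809, 1696 of 2663, 1304 of 3107 and 791 of 1679 of them. Cells that met only the Inhba minimum were 22, 29, 261 and 157. How far this shift bears on each interaction was not tested. Of 11167 genes 29 had a more positive difference in the selected cells (0.26%) and 78 a more negative one (0.698%), 0.958% in either direction, with a median of -0.01. The more positive included 5 class II genes, and the more negative 6 hypoxia and 5 lipid-associated genes. The interferon gamma list had 2 of 30 genes more positive (Irf1 and Ly6a) and 2 more negative (Upp1 and Cd274). Irf1 did not pass there without WT 2, KO 1 or KO 2. None of 17 class I genes and none of 25 cholesterol genes passed, with medians of 0.14 and 0.09.

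On the class II list, 5 of 13 genes had a more positive difference and none a more negative one, with a median of 0.60. Other Csf1r cells held 7826, 9224, 8079 and 9559 CPM of Cd74, overlapping between genotypes, where the selected cells held 3582, 3379, 5646 and 7338 CPM. The interaction for Cd74 was 0.82 ± 0.10 (adjusted p = 0.00065). H2-DMa was at 480, 546, 509 and 538 CPM in the other cells, and its interaction was 0.76 ± 0.10 (adjusted p = 0.000886). H2-Aa and H2-Eb1 had 0.83 ± 0.12 and 0.92 ± 0.14 (adjusted p = 0.00938 and 0.022). The selected cells of KO were thus nearer to other Csf1r cells in these genes than those of WT, and lay below them in each library. The count of 5 was 1 without the deepest cells or at higher minimums, 2 with cells thinned to 10000 UMIs and 2 without cells holding stromal markers, whereas H2-DMa passed throughout.

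On the hypoxia list, 6 of 37 genes had a more negative difference (Egln3, Pfkfb3, Ero1a, Slc2a1, Bnip3 and Bnip3l) and none a more positive one, with a median of -0.18. Egln3 was at 80.9, 52.7, 53.7 and 49.5 CPM in other Csf1r cells, and its interaction was -0.82 ± 0.10 (adjusted p = 0.000419). Ero1a, an oxidase of the endoplasmic reticulum, was at 272, 197, 191 and 213 CPM there beside 620, 531, 306 and 341 CPM in the selected cells, an interaction of -0.65 ± 0.10 (adjusted p = 0.0014). Slc2a1 was at 216, 203, 163 and 154 CPM there, an interaction of -0.54 ± 0.10 (adjusted p = 0.00919) that did not pass without KO 1. The selected cells had the higher level in every library for these 3, by more in WT. The count of 6 was 2 without KO 1, 4 without KO 2 and 14 against Arg1-high cells alone.

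**Figure D5:**
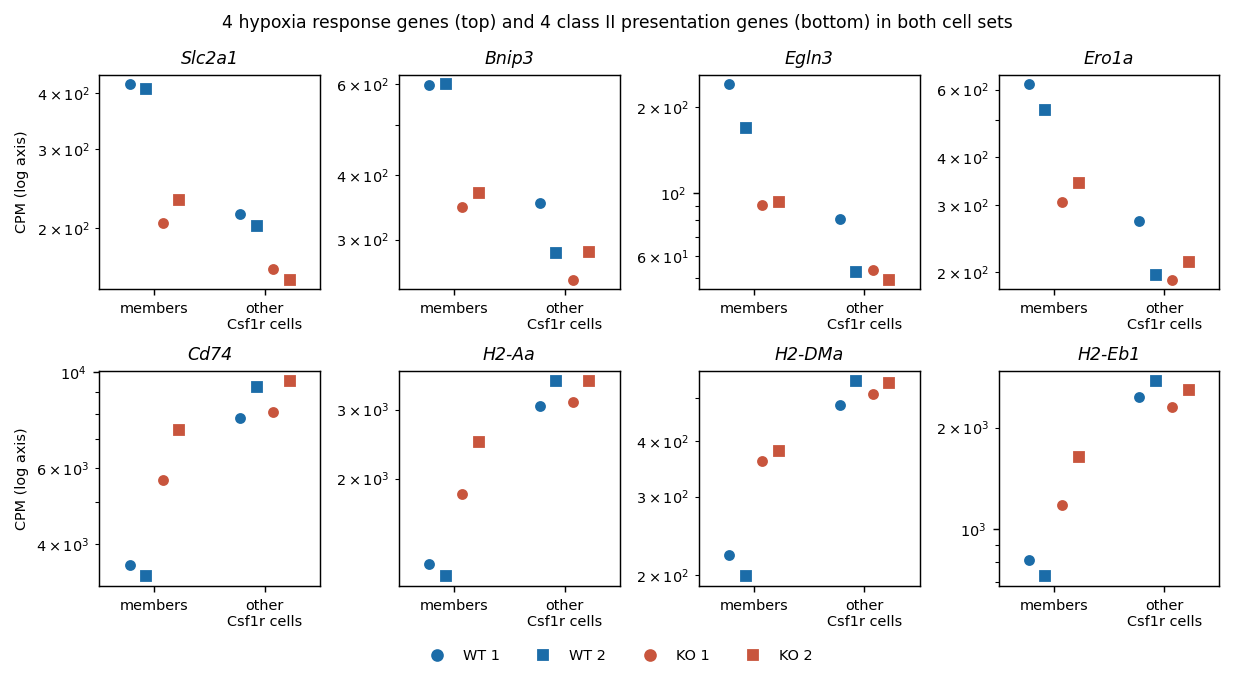
Level in CPM (log axis) of 4 hypoxia response genes (top) and 4 class II genes (bottom) in the selected cells (members) and in other Csf1r cells; blue is WT, red is KO, circles library 1, squares library 2, no error bars. WT and KO points stand apart in the selected cells, and closer together in other Csf1r cells.

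Lipid genes came next, with 5 of 25 more negative (Cd36, Lpl, Gpnmb, Plin2 and Ctsl) and none more positive. The count of 5 was 11 without WT 1, 4 without KO 1, 3 without WT 2 and 2 without KO 2. Plin2, a lipid droplet coat gene, was at 466, 477, 452 and 419 CPM in the selected cells and at 248, 276, 414 and 341 CPM in the others. It was thus level across genotypes in the selected cells and higher in KO in the others, an interaction of -0.66 ± 0.10 (adjusted p = 0.0011). The chaperone gene Hsph1 was at 66.8, 65.7, 39.5 and 29.8 CPM beside 33.4, 26.9, 36.9 and 31.5 CPM, an interaction of -1.14 ± 0.14 (adjusted p = 0.000256). Hsph1 did not pass with cells thinned to 10000 UMIs. Mt1, Mt2, Slc7a11 and Fth1 were the 4 of 26 metal and oxidative stress genes that were more negative, and 2 were without KO 1 or without KO 2.

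The 10 largest interactions outside this order included Npy, Cd93 and Arg2. Npy, which encodes neuropeptide Y (chr6:49822710-49829507), was at 39.1, 56.9, 42.0 and 46.2 CPM in the selected cells and at 5.47, 11.5, 29.7 and 25.5 CPM in the others, an interaction of -1.89 ± 0.19 (adjusted p = 5.44e-05). Cd93, a C-type lectin-like receptor, was at 182, 211, 187 and 113 CPM beside 85.5, 74.9, 187 and 112 CPM, an interaction of -1.31 ± 0.12 (adjusted p = 1.62e-05). Arg2, the mitochondrial arginase, was at 30.0, 26.4, 24.9 and 30.0 CPM beside 4.57, 4.78, 12.6 and 11 CPM, an interaction of -1.41 ± 0.23 (adjusted p = 0.00262). In all 3 the other cells were higher in KO, while the selected cells overlapped between genotypes. Npy and Arg2 did not pass with cells thinned to 10000 UMIs, and Cd93 passed throughout. Slpi had an interaction of -1.20 ± 0.10 (adjusted p = 9.99e-07). Within the selected cells alone its difference between the genotypes did not pass (adjusted p = 0.234).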

How the data were processed

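The deposited values are raw UMI counts, a whole number for each gene in each barcode of 4 matrices. Per the file headers Cell Ranger 5.0.0 wrote them. The submitters' processing notes name Cell Ranger 5.0.1, Seurat 3.15, whose role is not stated, and the build mm10. Of 22620 gene identifiers 22565 were found in GENCODE vM21 on GRCm38, the source of gene coordinates. A barcode was kept with 200 or more genes and no more than 20% of UMIs from mitochondrial genes. No doublet caller was run, and free RNA was not removed. The selection excludes CD3 and cycling cells, and an alternative left out cells above the 90th percentile of UMIs. Counts of the selected cells were summed per library, and 3 UMIs are 0.882, 1.05, 0.442 and 0.520 CPM there. edgeR 4.0.16 (R 4.3.3, limma 3.58.1) was used with filterByExpr, TMM, the robust quasi-likelihood fit and Benjamini-Hochberg adjustment over all genes, two-sided, at 0.05. The scripts were tested on simulated data. DESeq2 1.42.0, other scalings, filters and selections, and leaving out each library were alternatives. Python 3.11.15, numpy 2.4.6, scipy 1.17.1, pandas 2.3.3 and matplotlib 3.10.9 were used for the rest. Nothing in the labels says that a replicate number is shared by the genotypes, so numbers were not taken as pairs. Same-numbered libraries did not deviate together (r = -0.0299 over 9659 genes). With 2 libraries per genotype this correlation cannot decide whether they were pairs.

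Genes named were the 12 largest rises and 12 largest falls with at least 10 CPM, the 15 highest and 10 lowest beside other Csf1r cells with at least 50 CPM, the 10 largest interactions with at least 10 CPM, members of 19 functional lists and 12 marker lists, and the genes of the selection. The members and lists were chosen with earlier results of these data known. The printed promoters are those of lowest adjusted p on their list that hold the letters, from RefSeq. Genes of the selection were given values without a test. The targeted gene is not reported here.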

Additional observations from a re-analysis of the deposited data

Results flagged for a closer look

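For 10 genes the difference between KO and WT was not the same in the selected cells as in other Csf1r cells of the same libraries, by an interaction term (edgeR's quasi-likelihood test). On the log2 scale the interaction was -1.89 for Npy, -1.60 for Bhlhe41, -1.46 for Ankrd33b, -1.41 for Arg2, 1.36 for Qpct, -1.36 for Ahnak2, -1.34 for Ets1, -1.31 for Cd93, -1.30 for Fzd7 and -1.22 for Abcc5.

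Bhlhe41 and Fzd7, which encodes a Wnt receptor, had lower levels in KO in the selected cells, and smaller differences in the others. Bhlhe41 was at 26.8, 30.6, 7.66 and 7.10 CPM in the selected cells and at 17.7, 18.2, 15.1 and 12.6 CPM in the others. Qpct, which encodes glutaminyl cyclase, was at 11.2, 8.08, 11.3 and 17.1 CPM and at 33.7, 35.7, 12.8 and 27.3 CPM, lower in KO in the others. Ets1, a transcription factor gene, was at 32.4, 29.5, 19.7 and 19.7 CPM and at 12.8, 9.5, 18.6 and 16.6 CPM, so that its 2 differences ran in opposite directions. The adjusted p-values were 0.000517 for Bhlhe41, 0.00657 for Qpct and 0.00116 for Ets1. Bhlhe41 and Cd93 passed in every alternative run, Ankrd33b and Fzd7 did not pass without KO 1, and the others did not pass with cells thinned to 10000 UMIs.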

How the results depend on the processing

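The count of genes higher in KO within the selected cells (252) was 516 with no filter on low counts, 161 by DESeq2, 99 with cells thinned to 10000 UMIs, 163 at higher Inhba and Arg1 minimums, 550 with the exclusions on C3, Fcrls, Mmp13 and Cxcl9 dropped and 160 without cells holding T, NK or B cell marker UMIs. The count lower (165) was 399 with no filter, 52 with thinned cells and 492 with the exclusions dropped. Leaving out 1 library gave 101 to 563 higher, with 101 without KO 1, 108 without KO 2 and 563 without WT 2, and 53 to 499 lower, with 53 without either KO library, 268 without WT 1 and 499 without WT 2. Where 1 library stood for a genotype, it was assumed to vary like the other genotype. Without KO 1, 87 of the 252 genes kept their call, and without KO 2, 105 did. For the interaction, more positive genes (29) were 118 with no filter, 19 by DESeq2, 19 at higher minimums, 255 with the exclusions dropped, 54 without cells holding fibroblast, epithelial or endothelial markers, 136 against Arg1-high cells and 19 (without KO 2) to 185 (without WT 1) when 1 library was left out, with 81 without WT 2. More negative genes (78) were 195 with no filter, 29 by DESeq2, 480 with the exclusions dropped, 177 without those stromal-marker cells, 174 against Arg1-high cells, 139 without the deepest cells and 50 (without KO 2) to 286 (without WT 1) when 1 library was left out, with 129 without WT 2. The replicate block gave 209 higher and 130 lower genes within the selected cells, 177 and 330 in the interaction and a share difference of 0.71 on the log2 scale. That share difference (0.71) was 0.57 to 0.86 when 1 library was left out. It was 0.69 to 1.62 under the other alternatives run singly, apart from those that left out marker-holding cells. Without lymphocyte-marker cells the shares were 2.59%, 2.02%, 2.27% and 2.61% of kept cells in WT 1, WT 2, KO 1 and KO 2, overlapping between genotypes. Without stromal-marker cells they were 2.10%, 1.88%, 3.02% and 3.31%. As a share of eligible Csf1r cells thinned to 10000 and 5000 UMIs, which dropped shallower cells, the difference was 1.73 and 1.77. Ppbp turned to -0.078 and Csf3 to 0.37 with the exclusions dropped, Cald1 to 0.25 without stromal-marker cells, and Ccl17 to 0.37 beside Arg1-high cells. Of the named genes' values, 1783 kept direction and call within the selected cells and 356 lost the call, and 686 and 146 did in the interaction. The cause of these changes was not tested. Alternatives that left out marker-holding cells or matched depth, the share of Arg1-high cells and the thinned shares of eligible cells were chosen after seeing the data. Genes under about 10 CPM rest on few UMIs in WT.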
